A study of Mus musculus and Mus musculus
Rattus norvegicus with 30 samples.

Results

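The Hoxc cluster is a row of homeobox genes on mouse chromosome 15. Its 9 members, Hoxc4, Hoxc5, Hoxc6, Hoxc8, Hoxc9, Hoxc10, Hoxc11, Hoxc12 and Hoxc13, were chosen by symbol, and all 9 were found among 19919 genes counted in mouse embryonic stem cells (mESCs) and on both alleles of RMES cells, where 34923 genes of the mouse and 25245 of the rat genome were counted. RMES cells are allodiploid stem cells made by fusing haploid mouse and haploid rat stem cells, so that both genomes share one nucleus. Expression of Flag-tagged Cdx2 was driven by a doxycycline-inducible lentiviral vector in stably transduced lines, and no label says whether a line is 1 clone. The mESC groups were wild type (WT), mouse Cdx2 overexpression (mCdx2-OE), rat Cdx2 overexpression (rCdx2-OE) and 7 mutants of rat Cdx2 (R1, R2, R3, R12, R13, R23 and R123), each with 2 RNA-seq libraries. The mutants carry, alone or combined as their digits say, 3 changes of the DNA-binding domain that are found in the mouse protein, which are tyrosine to phenylalanine (change 1), alanine to serine (change 2) and loss of an asparagine (change 3). The RMES groups were 2 RNA-seq libraries labelled WT, 1 of mCdx2-OE and 1 of rCdx2-OE. ATAC-seq covered WT and mCdx2-OE mESCs, and Cdx2 ChIP-seq covered mCdx2-OE and rCdx2-OE in both cell types, each with 1 library per condition.

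Hox genes encode transcription factors that give positional identity along the body axis, and within a cluster they lie in the order in which they act from the head end to the tail end. Cdx2, a homeobox factor related to caudal, is a known activator of Hox genes of the trunk and is also a factor of the trophectoderm and the intestine. In undifferentiated stem cells, Hox clusters are known to be silenced by Polycomb proteins. All members are transcribed on the plus strand of chromosome 15 (GRCm38), from Hoxc13 (ENSMUSG00000001655, chr15:102921103-102928814) at the tail-end side to Hoxc4 (ENSMUSG00000075394, chr15:103018934-103036852) at the head-end side. The annotation of Hoxc5 (chr15:102967443-103017429) starts inside Hoxc10 and runs past Hoxc9, Hoxc8 and Hoxc6, so these genes lie within its introns, and 166 exonic bases are shared by Hoxc5 and Hoxc10. The counting options given by the authors name no setting for reads shared by several genes, and the counts of Hoxc5 and Hoxc10 are uncertain to that degree.

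The strongest Cdx2 ChIP peaks of mESCs lay in the Hoxc4 to Hoxc9 side of the cluster, and the central stretches of 4 of them are printed here because they carry words that resemble the known Cdx2 site. These 4 are the peaks with the most reads whose central stretch lies in no exon. The last line is the centre of the accessible region that lost the most reads after mCdx2 induction and that held no Cdx2 peak. All are written 5′ to 3′ on the plus strand of GRCm38, and capitals mark the word TTTATGG, the word TTTATGA, the word TTTATTA and the word TTTATTG, or the reverse complement of one of them.
Hoxc5 intron, chr15:103014572-103014772: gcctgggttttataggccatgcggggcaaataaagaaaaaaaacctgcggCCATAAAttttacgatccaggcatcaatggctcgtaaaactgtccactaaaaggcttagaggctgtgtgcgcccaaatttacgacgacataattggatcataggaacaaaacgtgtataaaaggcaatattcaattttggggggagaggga
Hoxc4 intron, chr15:103032740-103032940: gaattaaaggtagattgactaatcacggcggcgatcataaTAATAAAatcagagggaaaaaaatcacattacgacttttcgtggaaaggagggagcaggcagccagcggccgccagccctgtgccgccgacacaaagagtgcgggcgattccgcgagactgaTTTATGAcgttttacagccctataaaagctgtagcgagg
Hoxc6 and Hoxc5 intron, chr15:103007933-103008133: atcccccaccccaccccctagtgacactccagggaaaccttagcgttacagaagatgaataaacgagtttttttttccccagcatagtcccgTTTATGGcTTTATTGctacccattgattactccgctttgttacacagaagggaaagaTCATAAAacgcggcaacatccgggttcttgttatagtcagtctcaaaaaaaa
Hoxc5 intron before Hoxc8, chr15:102986885-102987085: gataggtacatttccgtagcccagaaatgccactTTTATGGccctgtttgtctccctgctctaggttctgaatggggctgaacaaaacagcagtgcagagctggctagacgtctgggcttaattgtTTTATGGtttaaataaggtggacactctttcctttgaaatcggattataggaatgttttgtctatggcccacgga
between Hoxc13 and Hoxc12, chr15:102931898-102932098: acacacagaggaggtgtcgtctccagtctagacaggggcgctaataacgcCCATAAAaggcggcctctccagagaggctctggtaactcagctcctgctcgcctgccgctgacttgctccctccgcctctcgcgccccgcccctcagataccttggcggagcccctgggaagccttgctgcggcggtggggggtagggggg
Of the 15 Cdx2 ChIP peaks of mESCs at the locus, 12 held at least 1 of these 4 words in the central 300 bases, against 73.4% of all 91665 peaks. The stretch in the Hoxc6 intron held 3 words, and a pair of them stood 1 base apart. The RefSeq promoter of Hoxc4 held none of the words, which 14.4% of 32851 promoters of the same length held, and promoters of the other members were not used here. A match is a run of letters and was not tested as a binding site.

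RNA-seq depth was 74960057 and 94686029 counted read pairs in the WT mESC libraries and 12698443 to 24315929 in the 18 induced ones, so that the lowest Hoxc levels rest on few counts. In RMES cells the mouse allele had 36166038 to 41418817 counted pairs and the rat allele 29453412 to 35249756. Levels are given in CPM, counts scaled to the size of the library. Cdx2 itself was at 1.21 and 1.36 CPM in WT mESCs, at 97.9 and 127 CPM in mCdx2-OE, at 67.0 and 70.4 CPM in rCdx2-OE and at 37.2 to 147 CPM in the 14 mutant libraries. The RMES libraries labelled WT were not free of Cdx2 mRNA, with 247 and 241 CPM over both alleles, against 592 CPM in mCdx2-OE and 474 CPM in rCdx2-OE. In the libraries labelled WT it came from both genomes (4187 and 4541 mouse, 12384 and 13178 rat counts). In mCdx2-OE it was mostly mouse (40590 against 1770 rat counts), and in rCdx2-OE mostly rat (33680 against 186 mouse counts). The uninduced libraries are therefore called the libraries labelled WT throughout, and each RMES change below compares induced cells with libraries that held Cdx2 mRNA. Nothing in the labels says that replicates came from separate cultures, and p-values measure the spread between these libraries, which may be technical. In bulk RNA, fewer expressing cells and less RNA per cell cannot be told apart.

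In WT mESCs, Hoxc mRNA was low except for Hoxc13, Hoxc12 and Hoxc4. Per kilobase of transcript, the mean level was 1.34 CPM for Hoxc13 (n = 2, both libraries alike to 3 digits), 0.896 ± 0.0926 CPM for Hoxc12 and 0.20 ± 0.0318 CPM for Hoxc4 (SD, n = 2), and the other 6 members lay at or below 0.0544 CPM per kilobase. After mCdx2 induction Hoxc13 was still highest per kilobase at 2.74 ± 0.127 CPM (SD, n = 2), followed by Hoxc4 at 1.46 ± 0.276, Hoxc6 at 1.17 ± 0.301, Hoxc9 at 1.15 ± 0.338, Hoxc12 at 0.964 ± 0.503 and Hoxc10 at 0.766 ± 0.217 CPM per kilobase. These 5 members after Hoxc13 did not differ from their neighbours in the order beyond their SD. Hoxc5, Hoxc8 and Hoxc11 were lowest, at 0.391 ± 0.132, 0.304 ± 0.00778 and 0.0794 ± 0.0244 CPM per kilobase, and of these Hoxc5 and Hoxc8 did not differ beyond their SD.

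The head-end and middle members rose from near silence in mCdx2-OE mESCs. Hoxc9, which gives thoracic identity to motor neurons, had 0.13 and 0.023 CPM in WT and 2.22 and 3.38 CPM in mCdx2-OE, a log2 fold change of 5.18 ± 0.48 (SE, adjusted p = 8.96e-08, edgeR quasi-likelihood test with Benjamini-Hochberg adjustment, as for every adjusted p below). Hoxc5, a factor of the neck and upper trunk, had 0 and 0.057 CPM in WT and 0.92 and 1.5 CPM in mCdx2-OE, with a log2 fold change of 5.01 ± 0.57 (adjusted p = 1e-06). Hoxc6, a factor of brachial motor neurons, had 0.113 and 0.114 CPM in WT and 2.3 and 3.32 CPM in mCdx2-OE, with a log2 fold change of 4.54 ± 0.41 (adjusted p = 5.64e-08). For these 3 members every induced library lay above every WT library by a wide margin, and the size of the fold rests on 0 to 10 counts in each WT library. Without WT replicate 1 the log2 fold change was 4.23 for Hoxc5 and 6.57 for Hoxc9, and without WT replicate 2 it was 7.57 for Hoxc5 and 4.35 for Hoxc9.

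Hoxc10, a factor of lumbar and hindlimb levels, had 0.13 and 0.080 CPM in WT and 1.17 and 1.76 CPM in mCdx2-OE, a log2 fold change of 3.74 ± 0.40 (adjusted p = 4.17e-07). Hoxc8, a patterning factor of the thoracic skeleton and brachial cord, had 0.028 and 0.137 CPM in WT and 0.88 and 0.85 CPM in mCdx2-OE, a log2 fold change of 3.23 ± 0.58 (adjusted p = 0.000109) that was 2.6 without WT replicate 1 and 4.65 without WT replicate 2. Hoxc4, the member at the head-end border, had 0.454 and 0.571 CPM in WT and 4.27 and 3.25 CPM in mCdx2-OE, a log2 fold change of 2.87 ± 0.26 (adjusted p = 5.95e-08). These groups did not overlap either, and Hoxc4 started from a higher WT level than the 5 members named before it.

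The 3 tail-end members changed less or did not pass the test. Hoxc13, which is known for its part in hair and nail formation, had 3.30 and 3.29 CPM in WT and 6.52 and 6.96 CPM in mCdx2-OE, a log2 fold change of 1.03 ± 0.18 (adjusted p = 8.62e-05) that was 0.98, under the 2-fold threshold, without mCdx2-OE replicate 2. Hoxc12, its neighbour, had 0.99 and 0.86 CPM in WT and 0.63 and 1.37 CPM in mCdx2-OE, with a log2 fold change of 0.02 ± 0.35 (adjusted p = 0.954). Hoxc11, a factor of hindlimb and kidney levels, had 0.057 and 0.069 CPM in WT and 0.13 and 0.20 CPM in mCdx2-OE, with a log2 fold change of 1.22 ± 0.79 (adjusted p = 0.179) on at most 6 counts per library. The WT values of Hoxc12 lay between those of the induced libraries, and those of Hoxc11 lay below them.

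**Figure D1:**
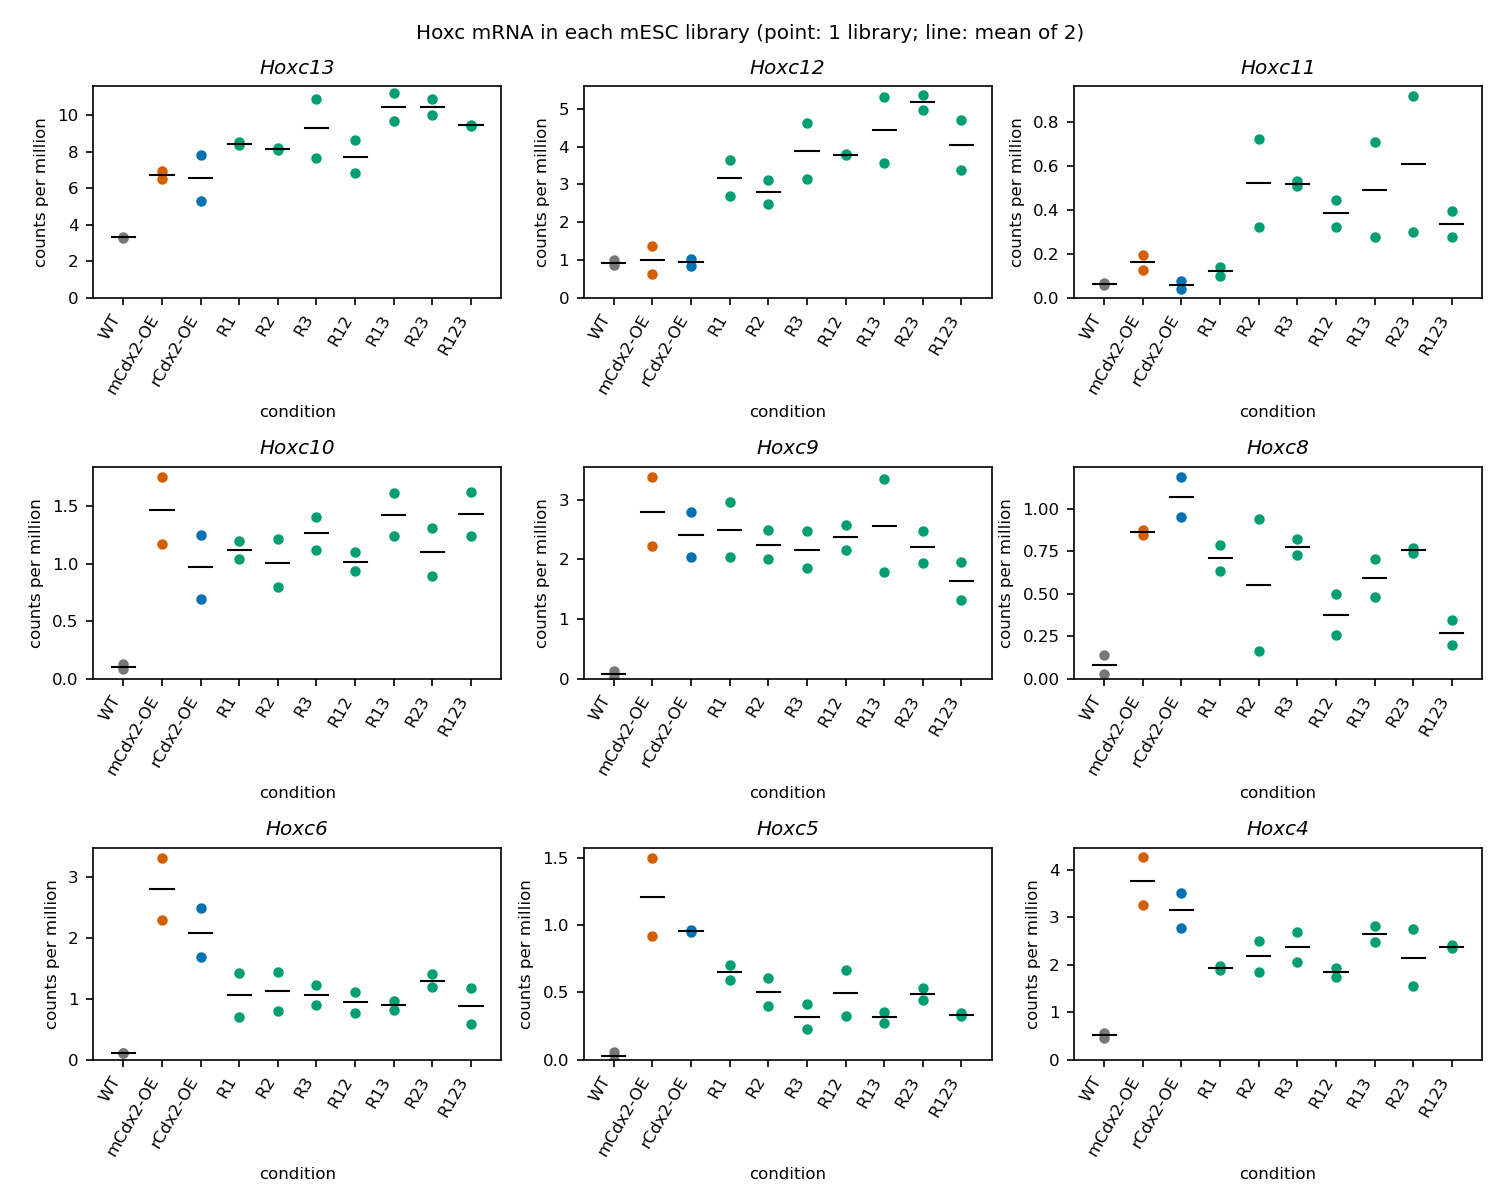
Level in CPM of each Hoxc mRNA in every mESC library, with conditions along the horizontal axis, 1 point per library and a line at the mean of 2. Hoxc4 to Hoxc10 sit near 0 in WT and higher in all induced lines, while Hoxc12 stays near 1 CPM in WT, mCdx2-OE and rCdx2-OE and lies between 2.49 and 5.37 CPM in the mutants.

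In all, 7 of 9 members were called higher in mCdx2-OE (adjusted p under 0.05 and over 2-fold) and none lower, where 33.4% of 16000 genes tested were called and 18.4% were called higher, and the median log2 fold change was 3.23 over the members and -0.03 over all genes. In rCdx2-OE, 6 of 9 members were called higher and none lower, where 34.5% of genes were called and 19% were called higher. The same 2 WT libraries served both comparisons. The rCdx2-OE values were 2.77 and 3.52 CPM for Hoxc4, 0.96 and 0.95 CPM for Hoxc5 and 2.04 and 2.79 CPM for Hoxc9, with log2 fold changes of 2.57 ± 0.27, 4.72 ± 0.59 and 4.96 ± 0.49. They were 1.69 and 2.49 CPM for Hoxc6, 1.19 and 0.95 CPM for Hoxc8 and 0.69 and 1.25 CPM for Hoxc10, with log2 fold changes of 4.10 ± 0.42, 3.57 ± 0.55 and 3.10 ± 0.43. All 6 stood above both WT libraries. Without WT replicate 1 the rCdx2-OE values were 3.93 for Hoxc5, 2.94 for Hoxc8 and 6.35 for Hoxc9, and without WT replicate 2 they were 7.27, 4.99 and 4.13. Hoxc13, with 5.27 and 7.84 CPM, passed the test at a log2 fold change of 0.95 ± 0.18 (adjusted p = 0.000193) and missed the 2-fold threshold, and it passed that threshold at 1.24 without rCdx2-OE replicate 1. Hoxc12 was at 0.85 and 1.03 CPM and Hoxc11 at 0.038 and 0.073 CPM, with log2 fold changes of -0.01 ± 0.35 and -0.29 ± 1.03 that did not pass the test.

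The direct comparison asked whether the mouse and the rat protein differ in their effect on the cluster. None of the 9 members differed between mCdx2-OE and rCdx2-OE by edgeR, none by DESeq2 and none at an unadjusted p under 0.05, where 0.0188% of genes (3 of 16000) were called by edgeR, 0.00625% higher and 0.0125% lower in mCdx2-OE, and 21 genes by DESeq2. The log2 differences, mCdx2-OE minus rCdx2-OE, ranged from -0.34 for Hoxc8 to 1.5 for Hoxc11. The interval of 2 standard errors ran from -0.20 to 0.79 for Hoxc4, from -0.51 to 0.95 for Hoxc9, from -0.30 to 0.45 for Hoxc13 and from -0.63 to 3.64 for Hoxc11. A 2-fold difference was thus outside the interval for Hoxc4, Hoxc9, Hoxc12 and Hoxc13, and inside it for Hoxc5, Hoxc6, Hoxc8, Hoxc10 and Hoxc11. Over all genes with enough counts, replicate 2 minus replicate 1 correlated at 0.76 between mCdx2-OE and rCdx2-OE. The fit behind these intervals did not pair the replicates, so their spread includes any shift that both lines share.

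In the 7 mutants members at both ends of the cluster rose, Hoxc11 and Hoxc12 included. Over the 7 comparisons with WT, 61 of 63 tests of a member were calls, all higher, with 8 or 9 members per mutant, where the share of genes called, and called higher, was 23.2% and 10.1% in R1, 23.4% and 10.6% in R2, 25.6% and 12.2% in R3, 23.7% and 10.6% in R12, 27.8% and 13.6% in R13, 28.7% and 13.8% in R23 and 28.9% and 14% in R123. The exceptions were Hoxc11 in R1 (log2 fold change 0.83 ± 0.88, adjusted p = 0.429) and Hoxc8 in R123 (1.56 ± 0.80, adjusted p = 0.0959). In the 14 mutant libraries Hoxc12 ranged from 2.49 to 5.37 CPM with a median of 3.71, which put every mutant library above every WT, mCdx2-OE and rCdx2-OE library. Hoxc13 ranged from 6.81 to 11.2 CPM with a median of 9.03, and Hoxc11 from 0.099 to 0.918 CPM with a median of 0.357, on 2 to 19 counts. Both ranges overlapped those of the intact proteins.

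**Figure D2:**
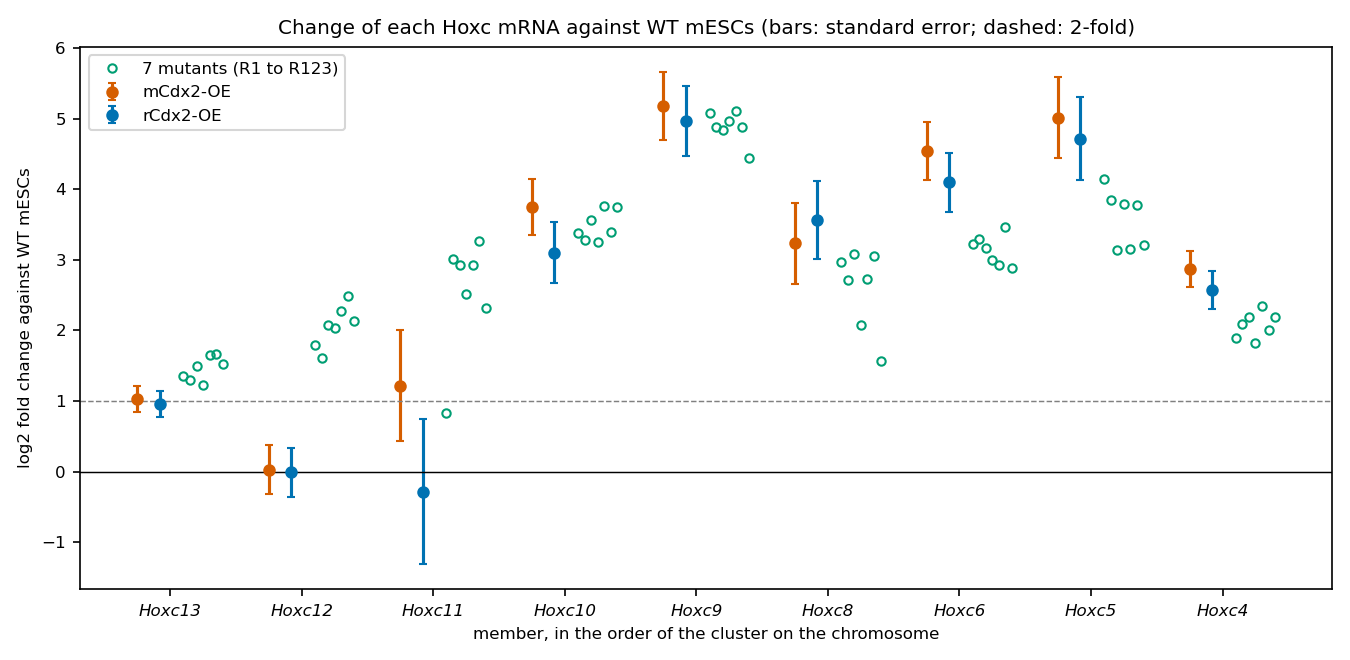
Log2 fold change of each Hoxc mRNA against WT mESCs, in chromosomal order from Hoxc13 to Hoxc4, for mCdx2-OE and rCdx2-OE (filled, with standard errors) and the 7 mutants (open). Open points lie above the filled ones for Hoxc12 and Hoxc13 and below them for Hoxc4, Hoxc5, Hoxc6 and Hoxc8. They meet the filled ones for Hoxc9 and Hoxc10, and for Hoxc11 the R1 point lies between the filled ones.

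The mutants were then set against the intact proteins, mCdx2-OE and rCdx2-OE pooled, a comparison added after the values were seen. The call used the adjusted p alone, and 7 of 9 members were called, where 64% of genes were called, 30.6% higher and 33.4% lower, so the members' share is close to that of all genes. Hoxc12 was higher in the mutants by 2.05 ± 0.21 on the log2 scale (adjusted p = 2.37e-07), Hoxc11 by 2.08 ± 0.50 (adjusted p = 0.00185) and Hoxc13 by 0.47 ± 0.11 (adjusted p = 0.00114). Hoxc5 fell by 1.29 ± 0.28, Hoxc6 fell by 1.18 ± 0.20, Hoxc8 fell by 0.80 ± 0.30 and Hoxc4 fell by 0.65 ± 0.14, with adjusted p-values of 0.000694, 8.97e-05, 0.0289 and 0.000953. Hoxc9 and Hoxc10 gave -0.19 ± 0.21 and 0.06 ± 0.21 and did not pass the test. The called members that were higher all lay on the tail-end side, and those that were lower all lay on the head-end side. No label says whether mutant and intact lines were made or sequenced together, so protein and any such batch cannot be told apart.

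Single libraries showed this split for some of the called members only. Every mutant library lay above every intact one for Hoxc12 and below every intact one for Hoxc5 and Hoxc6. For Hoxc5 the mutant libraries ranged from 0.225 to 0.704 CPM and the 4 intact ones from 0.92 to 1.5 CPM, and for Hoxc6 from 0.587 to 1.44 against 1.69 to 3.32 CPM, so that these groups did not overlap. Hoxc4 (1.55 to 2.82 against 2.77 to 4.27 CPM) and Hoxc8 (0.160 to 0.943 against 0.846 to 1.19 CPM) overlapped, and so did Hoxc11 and Hoxc13. The share of all genes without overlap is not given here. Cdx2 mRNA itself overlapped between mutant libraries (37.2 to 147 CPM) and intact ones (67.0 to 127 CPM). In each of the 7 mutants it was lower in replicate 2 (37.2 to 68.8 CPM over the mutants) than in replicate 1 (61.9 to 147 CPM). Trophoblast markers summed to 192 to 364 CPM in the mutants, 721 to 1000 CPM in the intact lines and 167 to 169 CPM in WT, and their part in the Hoxc differences was not tested.

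Within rat Cdx2 and its mutants, an additive fit over 16 libraries gave a term for each change of the protein. It covered 8 tested members, Hoxc11 having too few counts. The fit had no term for a step or a batch shared by all mutants and absent from rCdx2-OE. Against WT, the log2 fold change of Hoxc12 was -0.01 in rCdx2-OE, 1.79 in R1, 1.61 in R2 and 2.03 in R12. Its terms for changes 1 and 2 were only 0.42 and 0.44, so the additive form falls short for this member. Changes 1 and 2 gave no call of a member, where 0% of 14394 genes were called by edgeR for either change and 19 and 2 genes by DESeq2. At an unadjusted p under 0.05 there were 2 members for change 1, Hoxc6 and Hoxc8, and 1 for change 2, Hoxc8. An absence of calls under such a fit does not show that changes 1 and 2 have no effect. Change 3, the loss of an asparagine, gave 3 member calls, where 37.5% of genes were called, 18.7% higher and 18.8% lower. Hoxc12 was higher with change 3 by 0.80 ± 0.23 on the log2 scale (adjusted p = 0.0126), Hoxc13 was higher by 0.36 ± 0.11 (adjusted p = 0.0149) and Hoxc5 fell by 0.83 ± 0.25 (adjusted p = 0.0154). Of 8 members, 3 is a share close to that of all genes. Mouse Cdx2 carries change 3 as well. The log2 difference of mCdx2-OE minus rCdx2-OE was 0.03 ± 0.41 for Hoxc12, 0.07 ± 0.19 for Hoxc13 and 0.29 ± 0.44 for Hoxc5, none of them called. Cdx2 mRNA itself was lower with change 3, by a log2 difference of -0.74 ± 0.26 (adjusted p = 0.0358), and so were 8 of 11 trophoblast markers, with a median of -1.28, and the part of either in the Hoxc differences was not tested.

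Across the 18 induced mESC libraries, Pearson's r of log2 CPM between members ran from -0.75 to 0.81. It was 0.81 for Hoxc5 and Hoxc6, 0.74 for Hoxc11 and Hoxc12, 0.71 for Hoxc12 and Hoxc13 and 0.68 for Hoxc6 and Hoxc8, and it was -0.75 for Hoxc5 and Hoxc13 and -0.71 for Hoxc5 and Hoxc12. Members on one side of the cluster were not always alike, with 0.23 for Hoxc8 and Hoxc9, 0.22 for Hoxc10 and Hoxc12 and -0.05 for Hoxc4 and Hoxc9. These libraries fall into intact and mutant lines, and the values are a description of that spread. Over all 20 libraries the genes outside the cluster whose log2 CPM followed the mean of the members most closely, among 11896 candidates, were Clic4 (r = 0.974), Hoxa9 (r = 0.968) and Tat, AA467197 and Nt5dc3 (r = 0.967 each), which all follow the step from WT to induced. Over the 18 induced libraries alone they were Gm11457 (r = 0.839), Ago1 (r = 0.811), Rps27rt (r = 0.73), Tpst1 (r = 0.716) and Cdc42ep3 (r = 0.709).

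The other Hox clusters give the scale. In mCdx2-OE mESCs, 10 of 10 tested Hoxa genes, 6 of 8 Hoxb genes and 8 of 8 Hoxd genes were called higher and none lower, with median log2 fold changes of 4.64, 3.13 and 4.50, against 3.23 for Hoxc. The paralogs of Hoxc9 had log2 fold changes of 9.41 ± 0.33 (Hoxa9), 1.95 ± 0.22 (Hoxb9) and 4.45 ± 0.33 (Hoxd9), and those of Hoxc4 had 2.27 ± 0.62 (Hoxa4), 3.30 ± 0.44 (Hoxb4) and 8.13 ± 0.33 (Hoxd4). Between mutants and intact proteins, 9 of 10 Hoxa genes, 6 of 8 Hoxb genes and 5 of 8 Hoxd genes were lower and none higher, while Hoxc had 4 lower and 3 higher. Of the DNA-binding partners of Hox proteins, 5 of 9 were called higher in mCdx2-OE and none lower, Meis1 by 2.71 ± 0.20 and Pbx3 by 1.14 ± 0.13 on the log2 scale. Of 10 tested regulators upstream of Hox genes, 4 were higher and 4 lower. One of the 4 higher is the induced Cdx2 itself (6.45), and among the rest are the retinoic acid receptors Rarb (2.81 ± 0.23) and Rarg (-2.03 ± 0.09).

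Genes beside the cluster did not share these changes in mESCs. Of 18 annotated genes within 200 kb of the cluster, 3 had enough counts to be tested and none was called in mCdx2-OE or rCdx2-OE. Cbx5, which encodes the heterochromatin protein HP1 alpha, had a log2 fold change of -0.30 ± 0.07 in mCdx2-OE (adjusted p = 0.00166), under the 2-fold threshold. The antisense transcript Hotair, which lies between Hoxc12 and Hoxc11 on the minus strand, had 0 to 4 counts in the 10 replicate 2 libraries of mESCs and 0 or 1 on the mouse allele of RMES cells. Fibroblast markers, as a check for feeder cells, summed to 39.7 and 40.3 CPM in WT, 17.2 to 21.1 CPM in mCdx2-OE and rCdx2-OE and 3.77 to 9.53 CPM in the mutants. One of them, Pdgfrb, was at 4.66 and 3.89 CPM in WT, at 12.4 to 15.8 CPM in the intact lines and at 1.52 to 4.75 CPM in the mutants, and the part of these markers in the Hoxc changes was not tested. Pluripotency markers summed to 5400 and 5530 CPM in WT, 3410 to 3970 CPM in the intact lines and 4180 to 5540 CPM in the mutants.

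In RMES cells the same members went different ways on the mouse and the rat allele, measured in the same 4 libraries. On the mouse allele, 5 of 9 members were called lower and 1 higher in the induced lines, where 44.5% of 16887 genes were called, 16.1% lower and 28.3% higher. On the rat allele, 5 of 7 tested members were called higher and none lower, where 42.5% of 14627 genes were called, 28.3% higher and 14.2% lower. The induced group was the mCdx2-OE and the rCdx2-OE library pooled as 2 replicates. Both alleles were compared with the 2 libraries labelled WT, whose Cdx2 level is given above.

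On the mouse allele the libraries labelled WT were rich in tail-end members. Per kilobase, Hoxc13 was at 7.06 ± 0.233, Hoxc12 at 5.34 ± 0.368, Hoxc10 at 4.38 ± 0.184, Hoxc9 at 2.94 ± 0.332, Hoxc8 at 2.02 ± 0.0636 and Hoxc11 at 1.32 ± 0.156 CPM (SD, n = 2), above Hoxc6, Hoxc4 and Hoxc5 at 0.869 ± 0.214, 0.536 ± 0.175 and 0.296 ± 0.0608 CPM. Among neighbours in this order, the ranges of 1 SD overlapped for Hoxc6 and Hoxc4. In these 2 libraries posterior mesoderm markers summed to 89.3 and 91.5 CPM on the mouse allele and 85.9 and 86.2 CPM on the rat allele. In the induced lines they summed to 2.39 to 3.17 and 4.36 to 6.24 CPM. Intestinal markers summed to 307 and 341 CPM on the mouse allele, against 24.2 and 27.4 CPM in the induced lines. Single genes of these lists went both ways. On the mouse allele, of 5 tested posterior mesoderm markers 1 was called higher in the induced lines and 2 lower (median log2 fold change 0.25). Of 5 tested intestinal markers there, 3 were called higher and 2 lower (median 1.5). On the rat allele, of 4 tested posterior mesoderm markers 1 was called higher and 2 lower (median -1.47). The part of these markers in the Hoxc changes was not tested.

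Hoxc11 had 79 and 104 counts on the mouse allele in the libraries labelled WT, 11 in mCdx2-OE and 13 in rCdx2-OE, a log2 fold change of -3.21 ± 0.31 (adjusted p = 7.81e-07). Hoxc12 had 170 and 207 counts against 53 and 58, a log2 fold change of -2.05 ± 0.20 (adjusted p = 6.71e-07). Hoxc10 had 279 and 291 counts against 88 and 124, a log2 fold change of -1.72 ± 0.18 (adjusted p = 1.8e-06). Induced libraries were below both libraries labelled WT in each case, and so they were for Hoxc9 (250 and 235 against 103 and 95 counts, -1.59 ± 0.18) and Hoxc13 (576 and 608 against 297 and 267 counts, -1.37 ± 0.12). Hoxc8 fell by 0.76 ± 0.17 (190 and 201 against 129 and 155 counts, adjusted p = 0.00124), which is under 2-fold.

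At the head-end side of the mouse allele the values had the opposite sign. Hoxc4 had 55 and 38 counts in the libraries labelled WT, 119 in mCdx2-OE and 152 in rCdx2-OE, a log2 fold change of 1.24 ± 0.26 (adjusted p = 0.000741) that was 0.92, under 2-fold, without RMES WT replicate 2. Hoxc6 had 80 and 62 counts against 115 and 201, a log2 fold change of 0.85 ± 0.28 (adjusted p = 0.0127), under 2-fold, and 1.19 without RMES mCdx2-OE and 0.40 without RMES rCdx2-OE. Hoxc5 had 34 and 28 counts against 45 and 62, a log2 fold change of 0.49 ± 0.31 that did not pass the test (adjusted p = 0.164). Along the chromosome, the mouse-allele changes were thus negative from Hoxc13 to Hoxc8 and positive from Hoxc6 to Hoxc4.

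**Figure D3:**
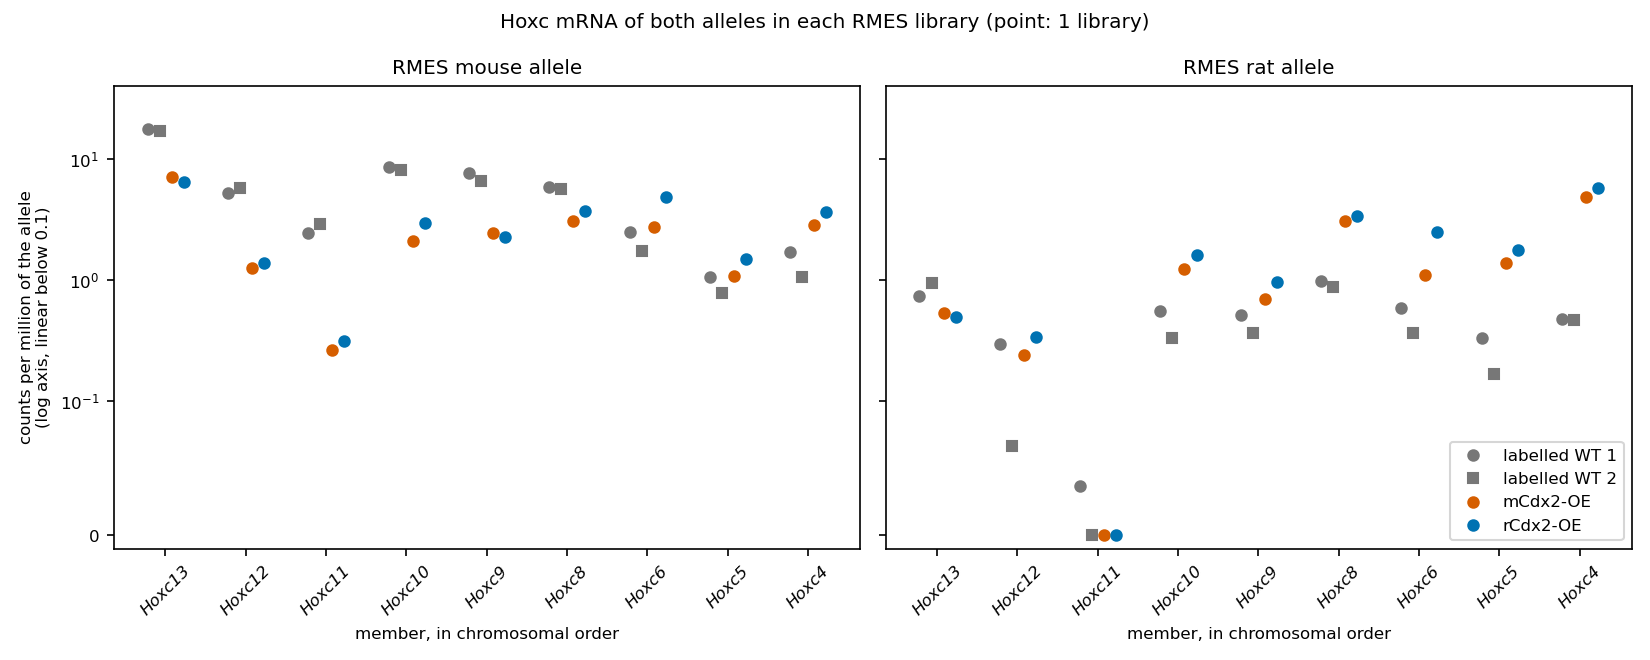
Level in CPM of each Hoxc mRNA in the 4 RMES libraries, for the mouse allele (left) and the rat allele (right), on a log axis that is linear below 0.1, in chromosomal order. On the left, grey points of the libraries labelled WT lie above the coloured induced ones from Hoxc13 to Hoxc8 and below them for Hoxc4, and on the right they lie below them from Hoxc10 to Hoxc4.

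On the rat allele, Hoxc4, Hoxc5, Hoxc6, Hoxc8 and Hoxc10 rose. Hoxc4 had 13 and 14 counts in the libraries labelled WT, 181 in mCdx2-OE and 221 in rCdx2-OE, a log2 fold change of 3.48 ± 0.27 (adjusted p = 8.24e-09). Hoxc5 had 9 and 5 counts against 52 and 68, a log2 fold change of 2.67 ± 0.41 (adjusted p = 2.08e-05). Hoxc8 had 27 and 26 counts against 116 and 129, a log2 fold change of 1.80 ± 0.25 (adjusted p = 8.09e-06). The induced libraries stood above both libraries labelled WT, and likewise for Hoxc6 (16 and 11 against 41 and 95 counts, 1.92 ± 0.43, and 1.21 without RMES rCdx2-OE) and Hoxc10 (15 and 10 against 46 and 62 counts, 1.70 ± 0.37).

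The other members were not called on the rat allele. Hoxc9 had 14 and 11 counts against 26 and 37, a log2 fold change of 0.92 ± 0.40 (adjusted p = 0.0449), under 2-fold, and 1.14 without RMES mCdx2-OE and 0.66 without RMES rCdx2-OE. Hoxc13 had 20 and 28 counts against 20 and 19, a log2 fold change of -0.70 ± 0.37 that did not pass the test (adjusted p = 0.0941). Hoxc12 (8 and 2 against 9 and 13 counts) and Hoxc11 (1 and 0 against 0 and 0 counts) had too few counts to be tested on this allele. Transcript lengths differ between the mouse and rat annotations, for Hoxc9 2430 against 915 bases, so levels of the alleles were not compared with each other.

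The difference of the response was tested as an interaction of allele and Cdx2, with the library as a block. For 7 of 9 members the signed log2 change was lower on the mouse allele than on the rat allele, and for none was it higher. Of 13605 genes 62.1% were called, 31.8% with the lower signed change on the mouse allele and 30.3% with the higher. The difference, mouse minus rat, was -3.45 ± 0.36 for Hoxc10 (adjusted p = 1.46e-08), where the mouse allele fell and the rat allele rose in both induced libraries. It was -2.58 ± 0.29 for Hoxc8 (adjusted p = 3.98e-08) and -2.53 ± 0.41 for Hoxc9 (adjusted p = 1.01e-05), again with a fall on the mouse allele and higher counts on the rat allele. It was -2.26 ± 0.37 for Hoxc4 and -2.22 ± 0.55 for Hoxc5, where the rat allele rose more steeply. For Hoxc12 it was -2.80 ± 0.67 on 2 to 13 rat counts, and -4.20 without RMES WT replicate 1 and -1.96 without RMES WT replicate 2. For Hoxc6 it was -1.06 ± 0.40 (adjusted p = 0.0248), a call lost by DESeq2 and without RMES WT replicate 1 (-1.14), RMES WT replicate 2 (-0.96) or RMES rCdx2-OE (-0.83). Hoxc11 and Hoxc13, at -0.62 ± 1.44 and -0.69 ± 0.36, did not pass the test. The paralogs of Hoxc9 moved in their own ways on the mouse allele, with log2 fold changes of -3.65 ± 0.11 for Hoxa9, -0.30 ± 0.09 for Hoxb9 and 0.53 ± 0.23 for Hoxd9. The fall on this allele was not particular to Hoxc. There, 5 of 10 tested Hoxa genes were called lower and 1 higher, and 4 of 8 Hoxb genes lower and 1 higher. Of 6 Hoxd genes, 4 were higher and 0 lower. Median log2 fold changes were -1.24, -0.81 and 2.92, against -1.37 for Hoxc.

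**Figure D4:**
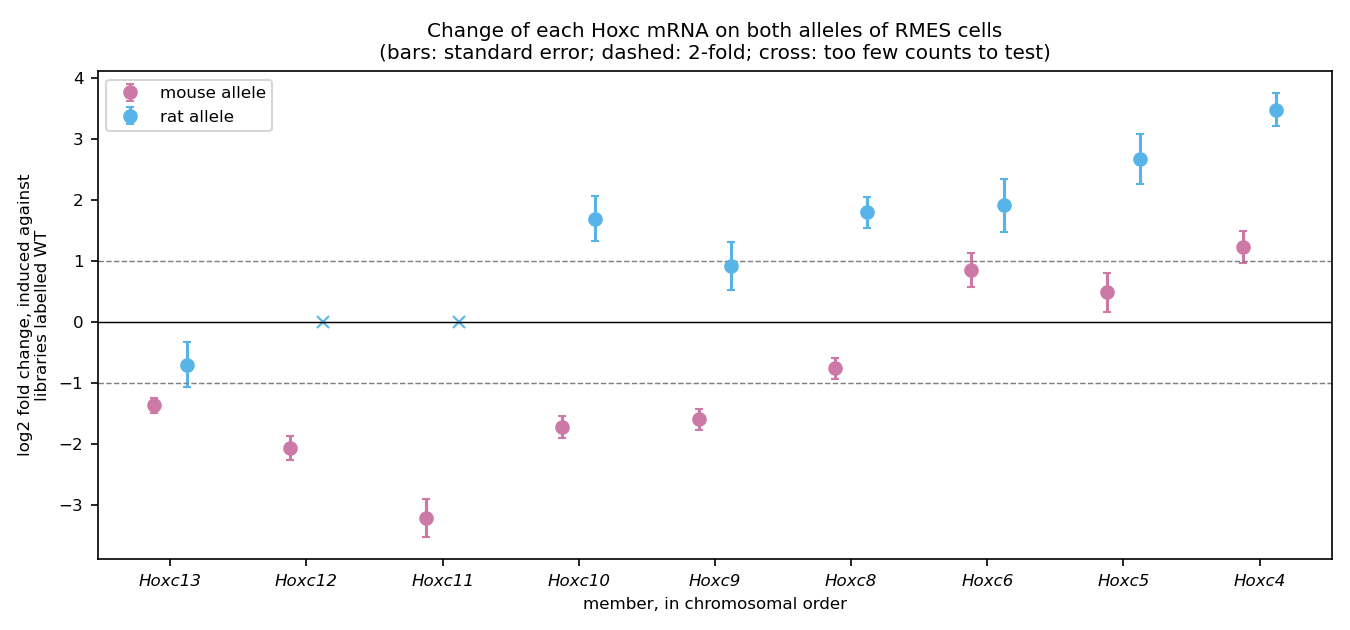
Log2 fold change, induced RMES lines against the libraries labelled WT, for each Hoxc mRNA on the mouse and the rat allele, with standard errors and dashed lines at 2-fold. The mouse points lie below the rat points for every member tested on both alleles, and crosses mark Hoxc11 and Hoxc12 on the rat allele, which had too few counts.

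Of the upstream regulators on the mouse allele, T, a factor of axial progenitors, fell by 8.48 ± 0.34 on the log2 scale, Cdx1 fell by 3.97 ± 0.09 and Cdx4, another activator of Hox genes, fell by 3.12 ± 0.27, while Rarb rose by 5.31 ± 0.45. In total 4 of 11 upstream regulators rose and 4 fell, Cdx2 being tested but not among them (1.93 ± 1.15, adjusted p = 0.136), and 5 of 9 Hox partners rose and 1 fell. The pooled value of Cdx2 averages opposite changes on the mouse allele. It had 4187 and 4541 counts in the libraries labelled WT, 40590 in mCdx2-OE and 186 in rCdx2-OE. Of the genes beside the cluster, 3 were tested on the mouse allele, and Calcoco1 rose by 1.19 ± 0.1 (adjusted p = 1.73e-07), Cbx5 fell by 1.30 ± 0.05 (adjusted p = 3.18e-10) and Smug1 fell by 0.55 ± 0.08 (adjusted p = 3.2e-05, under 2-fold) on the log2 scale. Fibroblast markers summed to 24.8 and 30.1 CPM on the mouse allele in the libraries labelled WT and to 19.6 and 24.6 CPM in the induced lines, and on the rat allele to 25.5 and 31.5 CPM and to 32.2 and 39.8 CPM. Trophoblast markers summed on the mouse allele to 273 and 293 CPM in the libraries labelled WT and to 1150 and 1320 CPM in the induced lines. On the rat allele they summed to 314 and 332 CPM and to 1090 and 1230 CPM.

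Chromatin accessibility of the locus, the span of the members with 10 kb on each side, changed in both directions in mCdx2-OE mESCs. Of 30 ATAC peaks, 24 had at least 40 reads after scaling both libraries to the same total, and of these 5 opened and 4 closed by more than 2-fold, where 34.2% of 85394 peaks did either, 13.7% opening and 20.5% closing. Without scaling, 8 opened and 2 closed at the locus, and 21105 opened and 8871 closed over the genome, against 11698 and 17509 with it. There is 1 library per condition, so intervals are exact binomial 95% intervals of the ratio that cover counting error only. The libraries held 6109353 (WT) and 8277850 (mCdx2-OE) reads in peaks.

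The opened regions lay mostly between Hoxc9 and Hoxc4. The peak in the Hoxc5 intron before Hoxc8 (chr15:102986508-102987884) had 44 reads in WT and 243 in mCdx2-OE, a scaled ratio of 4.08 (2.95 to 5.76). The peak in the Hoxc4 intron (chr15:103032423-103033179) had 8 and 80 reads, a ratio of 7.38 (3.57 to 17.7), and the peak at a start of Hoxc6 (chr15:102997915-102998272) had 10 and 37, a ratio of 2.73 (1.33 to 6.16). All 3 lie on Cdx2 peaks, and the sequences of the first and second are among those printed above. The Hoxc6 intron peak (chr15:103007827-103008309), also on a Cdx2 peak printed above, had 3 and 36 reads and was under the minimum of 40 scaled reads. The peak over Hoxc8 (chr15:102992371-102993186) stood just under the 2-fold threshold, with 14 and 39 reads and a ratio of 2.06 that gave 1.0 on the log2 scale after 1 was added to each value, and the peak in the Hoxc6 intron at chr15:103005398-103006214 stood just over it at 1.02.

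The closed regions lay around Hoxc12 and past Hoxc4. The region between Hoxc13 and Hoxc12 (chr15:102931218-102932779) had 231 reads in WT and 53 in mCdx2-OE, a ratio of 0.169 (0.123 to 0.229), and the region after Hoxc12 (chr15:102939355-102940388) had 130 and 37, a ratio of 0.21 (0.142 to 0.305). The region past Hoxc4 (chr15:103040784-103042673) had 143 and 76 reads, a ratio of 0.392 (0.293 to 0.522). The start of Hoxc13 (chr15:102920152-102922342) had 202 and 275 reads and a ratio of 1.0 (0.835 to 1.21). On the Hoxc10 to Hoxc13 side, 1 peak of 10 opened and 3 closed, and on the Hoxc4 to Hoxc9 side 4 of 14 opened and 1 closed, with median log2 ratios of -0.29 and 0.45.

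Cdx2 ChIP-seq gave 15 peaks at the locus in mESCs, 4 on the Hoxc10 to Hoxc13 side and 11 on the Hoxc4 to Hoxc9 side. The sides held 238 and 2118 reads of mCdx2 and 255 and 2062 reads of rCdx2. Peaks were called on merged reads, so each library has a count in every peak. The 3 strongest lay in Hoxc5 (chr15:103014461-103014883, 418 mCdx2 and 383 rCdx2 reads), the Hoxc4 intron (chr15:103032538-103033142, 429 and 373 reads) and the body of Hoxc4 (chr15:103035160-103035651, 358 and 366 reads), at or above the 99.3 percentile of all peaks. None of the 15 peaks differed by over 2-fold between mCdx2 and rCdx2, where 0.912% of all peaks did, and log2 ratios ran from -0.76 to 0.29. The peaks before Hoxc8 (ratio 0.688, 0.525 to 0.898), over a coding exon of Hoxc6 (0.75, 0.61 to 0.922) and after Hoxc11 (0.58, 0.34 to 0.974) had intervals below 1, by counting error alone. Which of the 2 deposited columns holds which protein was read from the abbreviations of their names.

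**Figure D5:**
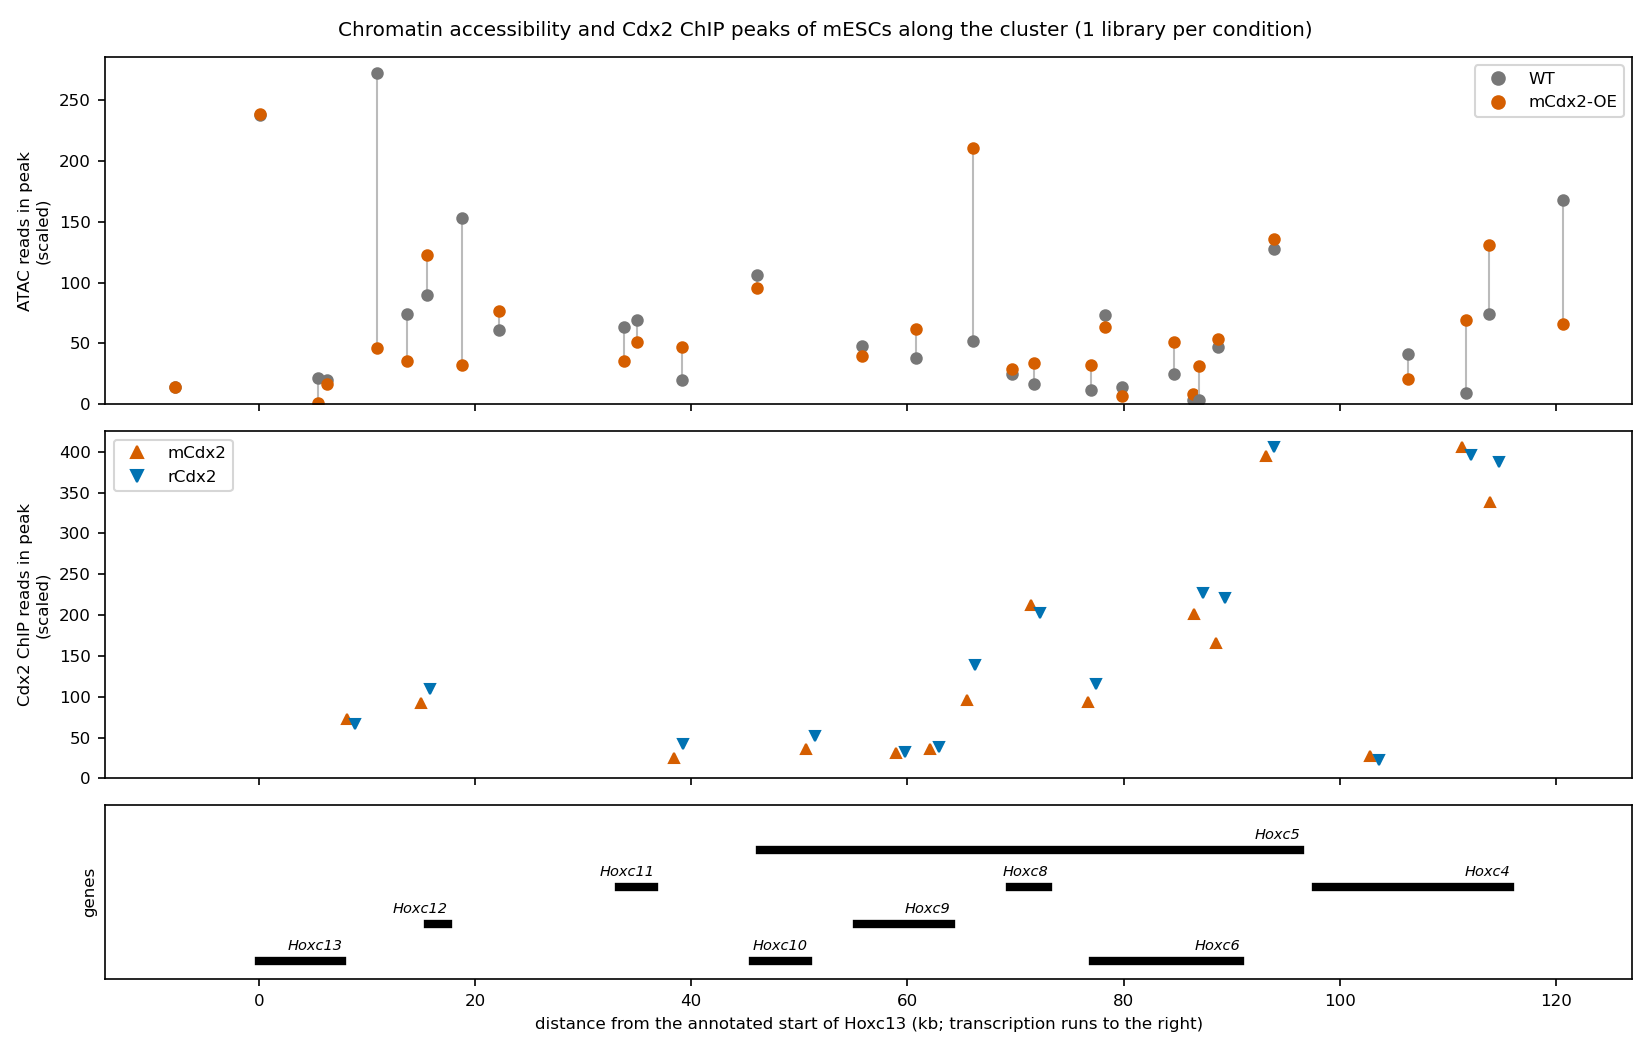
Scaled ATAC reads per peak in WT and mCdx2-OE mESCs (top), scaled Cdx2 ChIP reads per peak for mCdx2 and rCdx2 (middle) and the extent of the 9 genes (bottom), by distance in kb from the annotated start of Hoxc13, with the ChIP symbols of one peak drawn side by side. Cdx2 peaks are tallest near Hoxc5 and Hoxc4, and ATAC peaks near Hoxc12 fall while those before Hoxc8 and in Hoxc4 rise.

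Accessibility and Cdx2 peaks coincided in part. Of the 30 ATAC peaks, 10 overlapped a Cdx2 peak of mESCs by at least 1 base, among them 4 of the 5 opened and none of the 4 closed peaks. Over the genome, 58.3% of opened and 2.97% of closed ATAC peaks overlapped a Cdx2 peak. The words searched for were found in the central 300 bases of 2 of 5 opened and 3 of 4 closed peaks at the locus, against 18.2% of all ATAC peaks, so 3 closed regions held a word and no Cdx2 peak. Over their whole length, which differs between peaks, the opened peaks held 0, 4, 2, 0 and 4 words in order of position. The closed ones held 2, 1, 0 and 1.

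In RMES cells, 10 Cdx2 peaks were found on the mouse genome at the locus, and all 10 lay on a peak of mESCs. Of the 15 mESC peaks 10 had such a counterpart, where 64.8% of all mESC peaks did, and 80.1% of all RMES peaks lay on a mESC peak. Again 8 lay on the Hoxc4 to Hoxc9 side, with 612 mCdx2 and 536 rCdx2 reads, and 2 on the Hoxc10 to Hoxc13 side, with 59 and 69 reads. The strongest was in the Hoxc4 intron (chr15:103032561-103033157, 179 and 155 reads, at the 98.0 percentile). None differed by over 2-fold between mCdx2 and rCdx2, where 2.08% of RMES peaks did, with log2 ratios from -0.93 to 0.29. The rat locus was not analysed here.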

How the data were processed

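RNA-seq counts were deposited by the authors as raw counts per gene: read pairs were aligned with STAR 2.7.0d to mm10 (mESCs) and counted by strand with featureCounts on an Ensembl annotation without pseudogenes, and RMES reads were assigned to mm10 or rn6, with separate tables for the alleles. Reads alike in both genomes could shift allele counts, which was not tested. ATAC-seq and ChIP-seq counts deposited by the authors are reads in peaks that MACS2 called on merged reads. Whether ATAC-seq reads were shifted for the transposase is not given in the sources used here, and its effect was not tested.

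Counts were tested with edgeR 4.0.16 in R 4.3.3 (TMM, filterByExpr, quasi-likelihood test, 1 fit of 20 mESC libraries), p-values were adjusted over all genes tested, and DESeq2 1.42.0 was the alternative. The code was tested on simulated data. CPM use TMM-scaled library sizes, and the RMES Cdx2 values over both alleles use unscaled totals of both genomes. The standard error is the log2 fold change over the root of F. Calls against WT needed an adjusted p under 0.05 and a log2 fold change over 1, and other calls the adjusted p alone. Peak libraries were brought to one mean depth, and log2 ratios used counts plus 1. All 9 members are named, whatever their values, with paralogs, neighbours and the 5 most alike genes by fixed rules. Genes needed a mean of 50 counts to be candidates for likeness. The numbering paired the mutants in the data, since replicate 2 minus replicate 1 correlated at 0.32 to 0.52 in all 21 pairs of mutants, against -0.26 to -0.06 between a mutant and WT, mCdx2-OE or rCdx2-OE. Between mCdx2-OE and rCdx2-OE the correlation was 0.76. The labels do not say what a number shares. Alternatives were normalisation, filters, scaling, locus width, a replicate block and leaving out each library. Members and lists were chosen with earlier results of these data known. Positions and exons are from GENCODE vM21 on GRCm38, which is mm10, and the Hoxc4 promoter is from RefSeq on GRCm38.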

Additional observations from a re-analysis of the deposited data

Results flagged for a closer look

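For 7 members the response to Cdx2 differed between the mouse and the rat allele of RMES cells by the test of the interaction itself. The differences, mouse minus rat on the log2 scale, were -3.45 for Hoxc10, -2.80 for Hoxc12, -2.58 for Hoxc8, -2.53 for Hoxc9, -2.26 for Hoxc4, -2.22 for Hoxc5 and -1.06 for Hoxc6. All 7 are negative in a comparison where 62.1% of genes were called in either direction. Hoxc12 rests on few rat counts and gave -4.20 without RMES WT replicate 1 and -1.96 without RMES WT replicate 2. The libraries labelled WT, which enter every difference, carried Cdx2 mRNA.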

How the results depend on the processing

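Of 135 counts of members or peaks under alternative settings, 134 stayed within 1.5 times the reported count. The exception was the number of ATAC peaks on a Cdx2 peak, which was 3 in place of 10 when an overlap of 50% of the accessible region was required. With 1 library left out at a time, member calls ranged from 6 to 7 for mCdx2-OE and for rCdx2-OE against WT mESCs, from 59 to 62 for the mutants against WT, from 6 to 7 for the mutants against the intact proteins, from 3 to 4 for the additive changes, and in RMES cells from 5 to 7 on the mouse allele, from 5 to 6 on the rat allele and from 6 to 7 for the difference between them.

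Of 335 values of single members under alternative settings, 318 kept their direction and their side of the threshold, and 8 turned in direction, all of members that were not called. Hoxc12 in rCdx2-OE, reported at -0.01, was 0.02 with the replicate block, 0.01 with the 4 libraries of the 2 conditions alone, and -0.13 to 0.15 with 1 library left out, 0.09 being without WT replicate 1. Hoxc12 in mCdx2-OE ranged from -0.55 without mCdx2-OE replicate 2 to 0.56 without mCdx2-OE replicate 1, and was -0.09 without WT replicate 2. Hoxc11 in rCdx2-OE ranged from -0.65 to 0.19, the highest without rCdx2-OE replicate 1, and its allele difference from -3.36 without RMES WT replicate 1 to 0.52 without RMES WT replicate 2. The cause was not tested.

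Over all 10 mESC conditions replicate numbers did not pair the libraries, with a correlation of replicate 2 minus replicate 1 over 0.1 in 22 of 45 pairs of conditions. With the replicate block the counts of member calls stayed at 7 for mCdx2-OE, 6 for rCdx2-OE and 61 for the mutants against WT, 0 for mCdx2-OE against rCdx2-OE, 7 for the mutants against the intact proteins and 3 for the additive changes, and no call of a single member changed. A replicate block of the 7 mutants alone, chosen after seeing the data, left 61, 7 and 3 member calls for the mutants against WT, the mutants against the intact proteins and the additive changes, and the exceptions against WT were again Hoxc11 in R1 and Hoxc8 in R123. Depth limits Hoxc11 most, with at most 19 counts in any mESC library.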
